A study of Mus musculus with 20 samples.

Results

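The 10 genes described here make glutathione or handle the cysteine it is built from: Gclc, Gclm and Gss for glutathione synthesis, Slc7a11 and Slc1a1 for uptake, Cbs and Cth for transsulfuration, and Cdo1, Csad and Mpst for the breakdown of cysteine. They were chosen by name for these roles, not by a rule on their values, from 35006 genes counted in 20 libraries of mouse retina. Earlier results of these data were known when they were chosen. All 10 were expressed highly enough to be tested in every comparison. RNA was taken from wild-type C57BL/6J mice, with 1 retina and 1 polyA library per mouse. The 4 young control mice were 119 days old and the 4 old control mice 668 days old, both without NACET. The treated mice drank NACET, an ethyl ester of N-acetyl-L-cysteine made to enter cells, with their water for 5 days at a daily 50 mg/kg. They were the 6 young NACET mice (4 of 129 and 2 of 119 days by their titles) and 6 old NACET mice (2 each of 668, 581 and 574 days).

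Glutathione, the main soluble thiol of cells, is made in a pair of steps: glutamate-cysteine ligase joins glutamate to cysteine, and glutathione synthetase adds glycine. Cysteine is usually the scarce ingredient, and cells obtain it by importing cystine or cysteine or by making it from the methionine product homocysteine. Cysteine not used for protein or glutathione is oxidized toward taurine, an amino acid that is abundant in the retina, or gives up its sulfur as sulfide and persulfide. NACET supplies cysteine once its ester and acetyl groups are removed, so the comparisons asked whether the RNA of this pathway differed with age, with added cysteine, or with both together.

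Total gene counts were 17.7 to 31.1 M per library (M, 1e+06 counts), and the 10 genes together took 0.0176% to 0.0262% of them. Several libraries stood apart and touch results given below. Lens markers (Mip, Lim2, Bfsp1, Crygs and Cryba1) summed to 2390 CPM (counts per 1e+06 gene counts) in old NACET replicate 1 and to at most 3.16 CPM elsewhere. Corneal epithelium markers (Krt5, Krt12, Krt14, Dsp and Trp63) summed to 388 CPM in old control replicate 2, 366 in young NACET replicate 4, 191 in young NACET replicate 5 and 83.0 in young NACET replicate 3, against 0.924 to 45.5 CPM in the others. These 5 libraries are called carry-over libraries here, and each difference named as called or under an unadjusted p of 0.05 is given with and without them. The defining markers of the labelled tissue were present: the 6 rod markers were detected in every library and reached 58500 to 89800 summed CPM. Old control replicate 4 was labelled male but held 59555 Xist counts and 1 Y-linked count, whereas 4 young mice were labelled female (2 control and 2 NACET). The labels also disagree on the age of young NACET replicate 6, with 119 days in its title and 129 in its batch tag. Apart from that library the batch tag repeats the age in the title, and no tag holds both young and old mice, so batch and age cannot be told apart. NACET is confounded with cohort in part: the ages of 129, 581 and 574 days occur in NACET mice alone. In whole retina, fewer cells of a type and less RNA per cell cannot be told apart either.

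Levels of different genes were set side by side per kilobase of exon, with the union of all annotated exons as the length. The order depends on that length, which was 3423 bases for Gclc, 5726 for Gss and 11245 for Slc7a11. Which transcripts the retina uses was not determined. On this scale Gclc was the highest of the 10 genes in all 20 libraries, with a median of 15.6 CPM per kilobase and a range of 14.0 to 17.1. Csad followed at a median of 7.91, and Gss (6.42), Slc1a1 (6.41), Gclm (6.31), Mpst (4.95) and Cdo1 (4.31 CPM per kilobase) came next. Each neighbor in the order from Csad to Cdo1 overlapped the next over the 20 libraries. Cth stood below them without overlap at a median of 1.76 CPM per kilobase. Cbs (0.895) and Slc7a11 (0.604 CPM per kilobase) were lowest and overlapped each other. In CPM, which is used for each gene from here on, the spread was narrowest for Gclc, whose highest library was 1.22 times its lowest, and widest for Slc7a11, at 3.89 times.

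**Figure D1:**
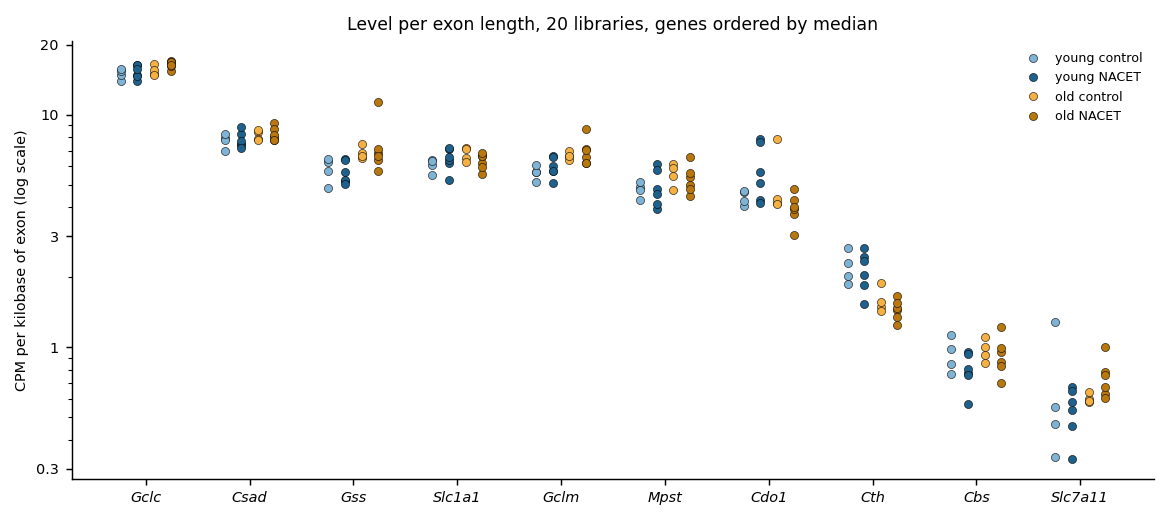
Level of the 10 genes in CPM per kilobase of exon (vertical log axis), each point 1 library and each color 1 of the 4 groups, with genes ordered by their median over the 20 libraries. Gclc lies above all others at 14.0 to 17.1, while Slc7a11 and Cbs lie lowest.

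In the synthesis group no gene passed the test in any comparison, and the largest of their differences, that of Gss between old and young NACET mice, was 0.33 on the log2 scale. Gclc (chr9:77602342-77642292, mm9, plus strand) encodes the catalytic subunit of glutamate-cysteine ligase. It was measured at 47.9, 50.8, 53.0 and 53.8 CPM in the young controls and at 56.5, 51.3, 53.3 and 50.7 CPM in the old controls. The young NACET mice ranged from 48.0 to 55.9 CPM with a median of 52.3, and the old NACET mice from 53.0 to 58.5 CPM with a median of 57.0. The old NACET mice were thus the highest group, with all 6 above the median of the old controls and 3 above every old control.

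Gclm (chr3:121948475-121972902, mm9, plus strand) encodes the modifier subunit, which makes the ligase more efficient. Its levels were 26.3, 29.2, 29.3 and 31.3 CPM in the young controls and 34.2, 32.9, 35.8 and 34.1 CPM in the old controls. All 4 old controls lay above all 4 young controls. In the young NACET mice Gclm ranged from 26.2 to 34.1 CPM with a median of 30.3, and in the old NACET mice from 31.8 to 44.8 CPM with a median of 35.1. The highest value, 44.8 CPM, was in old NACET replicate 1, the library with lens markers. Gclm is a textbook target of NRF2, the transcription factor that NACET was studied for, and its promoter is shown for that reason. The window below runs from 250 bases before to 50 bases after the RefSeq transcription start (sequence from the GRCm38.p6 table), and its exact match in mm9 is chr3:121948225-121948524, plus strand. Capitals mark the core letters of the antioxidant response element, TGACNNNGC, searched on both strands.

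Gclm promoter: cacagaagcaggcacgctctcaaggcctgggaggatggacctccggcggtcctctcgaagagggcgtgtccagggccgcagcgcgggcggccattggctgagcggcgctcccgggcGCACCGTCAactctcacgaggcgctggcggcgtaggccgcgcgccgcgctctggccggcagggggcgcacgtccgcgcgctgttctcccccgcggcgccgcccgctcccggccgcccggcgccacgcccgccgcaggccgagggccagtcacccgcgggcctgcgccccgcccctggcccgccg

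These core letters occur once in this window, on the strand opposite to the gene. The first capital, as printed on the strand of the gene, is at -134 from the start. Of 32851 promoter windows of 300 bases in the table, 12.4% hold these letters on either strand. RefSeq windows were found for 7 of the 10 genes, not including Gclc, Cth and Cdo1, and among these 7 the letters occurred for Gclm and, in 1 of its 3 windows, for Mpst.

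Gss (chr2:155388917-155418546, mm9, minus strand) encodes glutathione synthetase, which completes the molecule. It was measured at 27.7, 35.8, 36.8 and 32.9 CPM in the young controls and at 42.7, 39.2, 37.2 and 38.0 CPM in the old controls. These groups again did not overlap in CPM, which are not scaled by TMM factors. The young NACET mice ranged from 28.9 to 36.8 CPM with a median of 31.3. The old NACET mice ranged from 32.9 to 65.2 CPM with a median of 38.8, and the value of 65.2 was again that of old NACET replicate 1. Gss exons overlap those of 3 genes on the other strand, Acss2, 0610038P03Rik and Gm14256, over at most 6.72% of their length each, and reads were counted without regard to strand, so reads in these stretches cannot be assigned by strand. Overlaps of this kind also touch 5.76% of Gclm exons (Gm17494) and 3.00% of Slc1a1 exons (4430402I18Rik).

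The number of Gclm reads per Gclc read, a quantity that does not depend on library size, was 0.549, 0.574, 0.553 and 0.583 in the young controls and 0.606, 0.641, 0.672 and 0.672 in the old controls. The old controls lay above all the young controls. Under NACET the ratio was 0.546 to 0.674 in young and 0.567 to 0.766 in old mice, and these ranges overlapped; the highest, 0.766, was in old NACET replicate 1. The ratio is given as a description with no test, and the share of all gene pairs that separate in this way was not computed. Gclm alone already separated the controls, as did 11.3% of all genes tested, whereas Gclc overlapped.

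**Figure D2:**
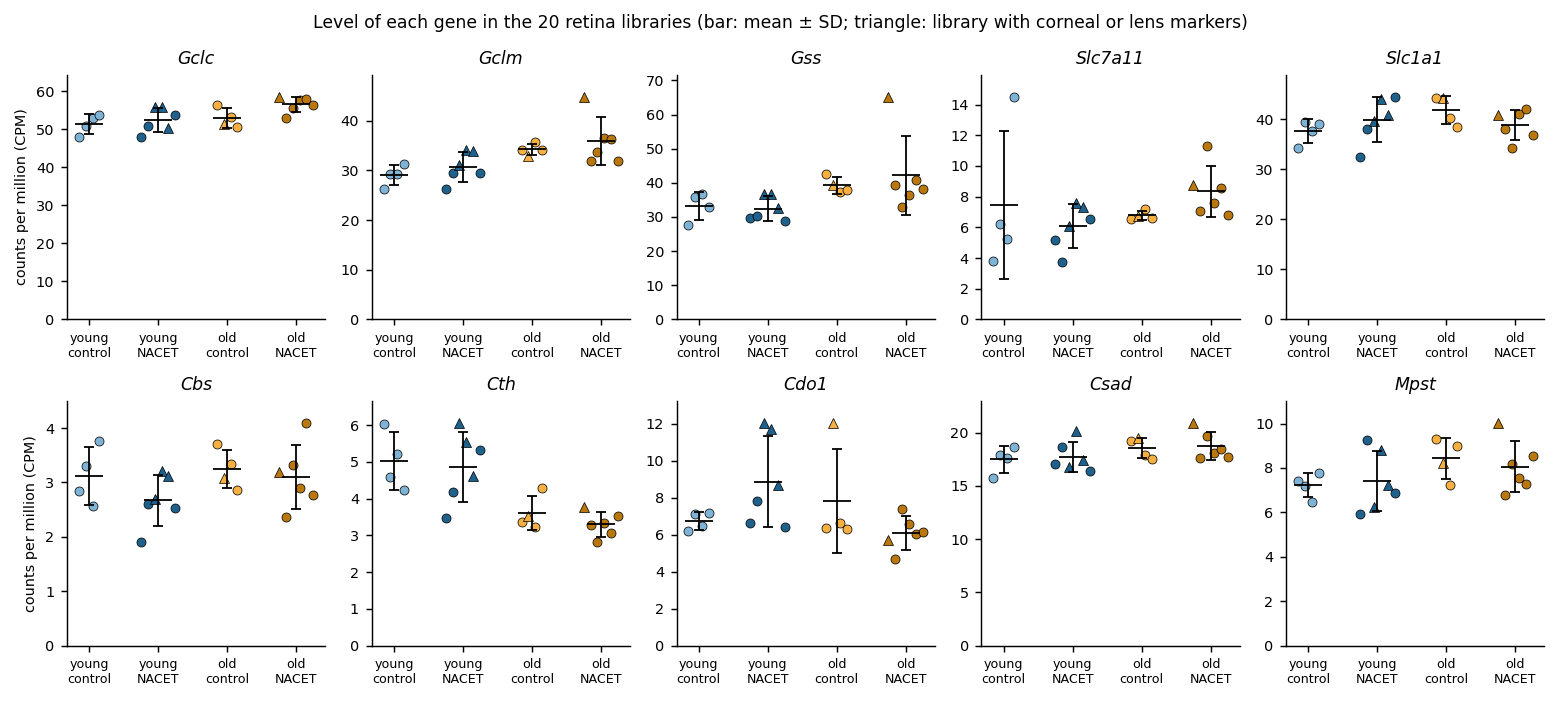
CPM of each of the 10 genes (vertical axes from 0) by group, with 1 point per library, the mean and SD as bars, and triangles for the 5 libraries with corneal or lens markers. Gclm and Gss of old controls lie above those of young controls, Cth is low in both old groups, and single libraries stand out for Gss, Slc7a11 and Cdo1.

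Of the carriers, Slc7a11 varied most among the 10 genes and Slc1a1 little, and neither passed the test in any comparison. Slc7a11 (chr3:50168858-50247535, mm9, minus strand) encodes xCT, the light chain of the carrier that brings in cystine in exchange for glutamate. Its levels were 3.81, 6.20, 5.27 and 14.5 CPM in the young controls and 6.53, 6.76, 7.22 and 6.60 CPM in the old controls. Young control replicate 4 alone stood at 14.5 CPM, above all 19 other libraries. The young NACET mice ranged from 3.73 to 7.57 CPM with a median of 6.31, and the old NACET mice from 6.82 to 11.3 CPM with a median of 8.07. All 6 old NACET mice lay above the median of the old controls and 4 lay above every old control. Retinal pigment epithelium markers (Rpe65, Best1, Ttr, Lrat, Rgr, Tyrp1 and Pmel, all 7 detected in every library) were also highest in young control replicate 4, at 244 summed CPM against 38.9 to 59.9 in the other young controls, with Tyrp1 at 32.0 and Pmel at 49.8 CPM. The markers summed to 33.1 CPM, their lowest, in old NACET replicate 3, which had the second-highest Slc7a11 level of 11.3 CPM. The part of these markers in the Slc7a11 level was not tested.

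The Slc7a11 promoter is shown because the gene is also a textbook target of ATF4, the factor that answers a shortage of amino acids, through elements close to its start. The window is the RefSeq promoter read 5' to 3' on the strand of the gene, and matches mm9 at chr3:50247486-50247785, minus strand. Capitals mark the core of the amino acid response element, TGATGNAA, searched on both strands.

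Slc7a11 promoter: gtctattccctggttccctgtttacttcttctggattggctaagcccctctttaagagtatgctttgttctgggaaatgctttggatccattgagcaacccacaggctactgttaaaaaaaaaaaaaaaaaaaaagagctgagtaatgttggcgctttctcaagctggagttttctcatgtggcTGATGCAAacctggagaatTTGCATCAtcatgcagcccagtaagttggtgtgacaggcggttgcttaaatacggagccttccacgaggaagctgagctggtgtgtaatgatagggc

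The letters occur here as a pair, 1 match on the strand of the gene and 1 on the opposite strand. Their first capitals, as printed on the strand of the gene, are at -66 and -47 in that order. Of all 32851 windows, 3.97% hold the letters at least once. Slc7a11 was the sole gene among the 7 with a window to hold them, and its window holds no match to the antioxidant response letters.

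Slc1a1 (chr19:28909539-28988450, mm9, plus strand) encodes a glutamate carrier, also called EAAC1, that takes up cysteine in neurons. It ranged from 32.4 to 44.5 CPM over all libraries, with group means of 37.6 ± 2.43 (SD, n = 4) in young control, 39.9 ± 4.44 (SD, n = 6) in young NACET, 41.8 ± 2.89 (SD, n = 4) in old control and 38.9 ± 3.00 CPM (SD, n = 6) in old NACET animals. No old NACET mouse exceeded the median of the old controls. The groups overlapped in every comparison.

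In transsulfuration, Cth was low in both groups of old mice and Cbs showed no such pattern. Cbs (chr17:31749568-31774144, mm9, minus strand) encodes cystathionine beta-synthase, which joins homocysteine to serine. It was read at 45 to 96 counts per library, or 1.91 to 4.09 CPM, with means of 3.12 ± 0.528 (SD, n = 4) in young control, 2.68 ± 0.468 (SD, n = 6) in young NACET, 3.25 ± 0.358 (SD, n = 4) in old control and 3.11 ± 0.590 CPM (SD, n = 6) in old NACET animals. All 4 groups overlapped.

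Cth (chr3:157557212-157588041, mm9, minus strand) encodes cystathionine gamma-lyase, which releases cysteine in the last step of transsulfuration. It was measured at 6.03, 4.59, 5.23 and 4.23 CPM in the young controls and at 3.37, 3.54, 3.23 and 4.28 CPM in the old controls. Of the old controls, 3 lay below every young control and replicate 4, whose sex label goes against its Xist count, did not. The young NACET mice ranged from 3.48 to 6.06 CPM with a median of 4.98. The old NACET mice had 3.77 and 3.27 CPM at 668 days, 2.83 and 3.34 CPM at 581 days, and 3.07 and 3.52 CPM at 574 days. The 3 ages of old NACET mice overlapped, and 4 of the 6 lay below every young NACET mouse. Over the 20 libraries 58 to 138 reads were counted for Cth, so counting error is part of the spread.

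In cysteine breakdown, Cdo1 varied most between libraries, Mpst less and Csad least. Cdo1 (chr18:46872859-46887996, mm9, minus strand) encodes cysteine dioxygenase, which commits cysteine to taurine or sulfate. It was measured at 6.18, 7.13, 6.49 and 7.16 CPM in the young controls and at 6.36, 12.0, 6.62 and 6.31 CPM in the old controls. In the young NACET mice it was 6.62, 7.80, 12.0, 11.7, 8.66 and 6.41 CPM for replicates 1 to 6, and in the old NACET mice 4.67 to 7.36 CPM with a median of 6.10. The 4 highest values were those of the 4 libraries with the highest corneal markers: old control replicate 2 and young NACET replicates 3, 4 and 5. In the remaining 16 libraries Cdo1 stayed between 4.67 and 7.80 CPM.

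Over the 20 libraries Pearson's r between log2 Cdo1 and the log2 corneal sum was 0.807 and Spearman's rho 0.611, and r was 0.638 without the 2 libraries farthest from the median of the corneal sum. The corneal sum was 3.50 to 366 CPM in young NACET, 6.26 to 388 in old control, 3.70 to 11.0 in young control and 0.924 to 9.70 CPM in old NACET mice, with 4 of the 5 markers detected in every library and Krt14 at 0 in some. The part of corneal tissue in the Cdo1 level was not tested. For Gss and the lens sum, r was 0.747 but rho 0.140, and r fell to 0.0372 without the 2 farthest libraries, and to 0.134 without old NACET replicate 1 alone. For Slc7a11 and the pigment epithelium sum r was 0.219 and rho 0.241, with r at 0.455 without the 2 farthest libraries and at 0.0172 without young control replicate 4 alone. Values correlated here come from the same library and are scaled to the same total, and they are given as descriptions.

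**Figure D3:**
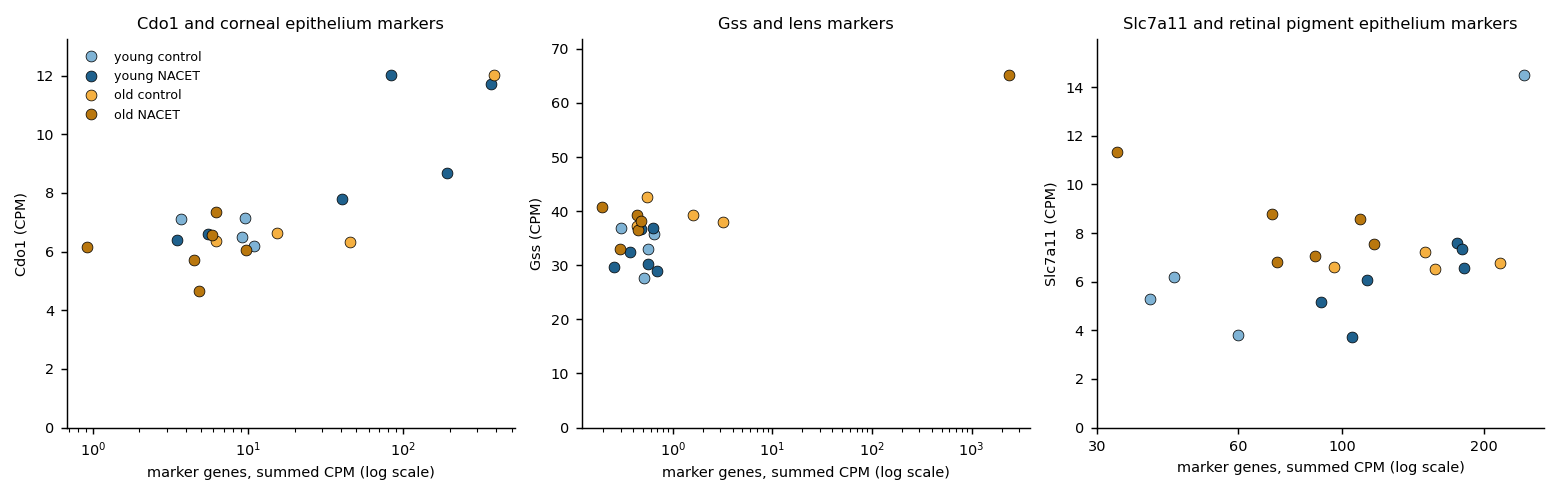
CPM of Cdo1, Gss and Slc7a11 (vertical axes) against the summed CPM of corneal epithelium, lens and retinal pigment epithelium markers (horizontal log axes), each point 1 of 20 libraries colored by group. The 4 libraries with the highest corneal sums hold the 4 highest Cdo1 values, and the single library with a lens sum of 2390 CPM holds the highest Gss value, 65.2 CPM.

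Csad (chr15:102007429-102019474, mm9, minus strand) encodes cysteine sulfinic acid decarboxylase, which acts after Cdo1 on the way to taurine. It ranged from 15.8 to 20.9 CPM, with means of 17.5 ± 1.22 (SD, n = 4) in young control, 17.8 ± 1.40 (SD, n = 6) in young NACET, 18.5 ± 0.952 (SD, n = 4) in old control and 18.8 ± 1.28 CPM (SD, n = 6) in old NACET animals. Mpst (chr15:78237142-78244432, mm9, plus strand) encodes mercaptopyruvate sulfurtransferase, which forms persulfides and sulfide. It ranged from 5.94 to 10.0 CPM, and its means were 7.22 ± 0.540 (SD, n = 4), 7.40 ± 1.36 (SD, n = 6), 8.43 ± 0.921 (SD, n = 4) and 8.06 ± 1.15 CPM (SD, n = 6) in the same order. Both genes overlapped between all groups.

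Without NACET, in old against young controls, Gclm and Gss were somewhat higher and Cth lower, but no difference passed the test. Of the 10 genes, 0 were called at an adjusted p under 0.05 by edgeR's quasi-likelihood test and 0 by DESeq2. Over all genes, edgeR called 234 (1.42% of the 16484 it tested) and DESeq2 710. Cth differed by -0.52 on the log2 scale (SE 0.16, edgeR adjusted p = 0.132), from 5.02 ± 0.789 to 3.60 ± 0.47 CPM (SD, n = 4 each). Gclm differed by 0.19 (SE 0.07, edgeR adjusted p = 0.187), and Gss by 0.19 (SE 0.08, edgeR adjusted p = 0.279). These 3 were the genes with an unadjusted p under 0.05, against 16.3% of all genes. Gclm and Gss were also the 2 whose groups did not overlap in CPM, which held for 11.3% of all genes tested. Overlap was counted on CPM not scaled by the TMM factors that the tests use. The closest Gss values were 36.8 CPM in young control replicate 3 (TMM factor 0.977) and 37.2 CPM in old control replicate 3 (1.01). The factors lie further apart than these values, so Gss separates the controls in unscaled CPM only. Without old control replicate 2, the carry-over library of this comparison, Cth differed by -0.51, Gclm by 0.20 and Gss by 0.18. Without young control replicate 1 Gss differed by 0.12 (SE 0.07). Labelled sex was unequal too, with females among the young controls alone. In mice labelled male Cth differed by -0.60, Gclm by 0.25 and Gss by 0.25, with edgeR adjusted p-values of 0.257 or more. Mpst (0.18), Slc1a1 (0.11), Csad (0.04), Cbs (0.01) and Gclc (-0.01) had edgeR adjusted p-values of 0.444 or more. Slc7a11 rested on young control replicate 4: its difference was -0.18 (95% interval -0.86 to 0.51) with that library and 0.35 (SE 0.15, edgeR adjusted p = 0.334) without it. Cdo1 likewise went from 0.19 (SE 0.20) to -0.12 (SE 0.11, edgeR adjusted p = 0.699) without old control replicate 2.

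With NACET in old mice, the differences of Gclc, Slc7a11 and Cdo1 were the largest relative to their errors, and none passed the test. Again 0 of the 10 genes were called by edgeR and 0 by DESeq2. Over all genes, edgeR called 90 (0.543% of the 16562 it tested) and DESeq2 373. Gclc was higher by 0.09 on the log2 scale (SE 0.04, 95% interval 0.01 to 0.17, edgeR adjusted p = 0.306), from 52.9 ± 2.59 (SD, n = 4) to 56.5 ± 2.03 CPM (SD, n = 6). Slc7a11 differed by 0.29 (SE 0.13, 95% interval 0.01 to 0.57, edgeR adjusted p = 0.319), from 6.78 ± 0.313 (SD, n = 4) to 8.36 ± 1.65 CPM (SD, n = 6). Cdo1 differed by -0.39 (SE 0.18, edgeR adjusted p = 0.344). These were the 3 genes with an unadjusted p under 0.05, against 14.4% of all genes. Without old control replicate 2 and old NACET replicate 1, the carry-over libraries here, the differences were 0.07 (Gclc), 0.29 (Slc7a11) and -0.06 (Cdo1). Without old NACET replicate 3 alone, Slc7a11 differed by 0.18 (SE 0.10, edgeR adjusted p = 0.436).

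The NRF2 target Gclm differed by 0.06 on the log2 scale, with a 95% interval of -0.11 to 0.23. Gss differed by 0.09 with an interval of -0.21 to 0.39, and without old NACET replicate 1 the values were -0.01 (SE 0.06) for Gclm and -0.07 (SE 0.06) for Gss. Among mice of 668 days alone, where 2 of the NACET mice remained and 1 of them was that library, Gss differed by 0.40 (SE 0.15, edgeR adjusted p = 0.546), and against the 4 mice of 581 and 574 days by -0.09 (SE 0.06, edgeR adjusted p = 0.532). For Gclc, Slc7a11 and Cdo1 the differences were 0.07, 0.22 and -0.62 among mice of 668 days and 0.10, 0.33 and -0.29 against those of 581 and 574 days. The Cdo1 difference was -0.08 (SE 0.13, edgeR adjusted p = 0.881) without old control replicate 2. Slc1a1 (-0.12), Cth (-0.14), Mpst (-0.07), Cbs (-0.07) and Csad (0.01) had edgeR adjusted p-values of 0.366 or more.

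With NACET in young mice no gene of all 16588 tested was called by edgeR (0%) or by DESeq2, and so none of the 10, while 724 genes had an unadjusted p under 0.05. Of the 10 genes, Cdo1 alone was among those 724. It differed by 0.38 on the log2 scale (SE 0.16, edgeR adjusted p = 1), from 6.74 ± 0.483 (SD, n = 4) to 8.87 ± 2.46 CPM (SD, n = 6). Without the 3 young NACET libraries with corneal markers the difference was 0.08 (SE 0.12). Gclc (0.02, 95% interval -0.10 to 0.13), Gclm (0.07, -0.08 to 0.22) and Gss (-0.05, -0.23 to 0.12) had intervals that included 0. Slc7a11 differed by -0.30 (SE 0.30) with young control replicate 4 and by 0.24 (SE 0.20) without it. The intervals of Slc1a1 (-0.09 to 0.24), Cth (-0.39 to 0.27), Cbs (-0.57 to 0.10), Csad (-0.15 to 0.17) and Mpst (-0.26 to 0.30) also included 0. Among mice of 119 days by their titles Cdo1 differed by 0.17 (SE 0.15) and Slc7a11 by -0.09 (SE 0.44), and with the batch tag as a covariate by 0.35 (SE 0.27) and -0.03 (SE 0.52).

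Between old and young mice that had both received NACET, Cth and Cdo1 fell and the other 8 genes did not pass the test. These mice were not used in the comparison of controls. Called by edgeR were 2 of the 10 genes, both lower in old mice, where 4.88% of all 16276 genes tested were called and 2.64% were called as lower. DESeq2 called the same 2, and over all genes it called 1325 where edgeR called 795. Cth fell by 0.60 on the log2 scale (SE 0.12, edgeR adjusted p = 0.00847), from 4.87 ± 0.952 to 3.30 ± 0.331 CPM (SD, n = 6 each), and all 6 old mice lay below the median of the young. Cdo1 fell by 0.58 (SE 0.15, edgeR adjusted p = 0.0302), from 8.87 ± 2.46 to 6.09 ± 0.897 CPM (SD, n = 6 each), and again all 6 old mice lay below the young median. Neither gene separated the groups completely, which 4.07% of all genes tested did.

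Cth thus differed by -0.60 under NACET and -0.52 in the controls, and Cdo1 by -0.58 under NACET and 0.19 in the controls; the gap between these is what the interaction below tests. Without the 4 carry-over libraries of this comparison neither gene was called: Cth differed by -0.51 (SE 0.16, edgeR adjusted p = 0.0727) and Cdo1 by -0.26 (SE 0.14, edgeR adjusted p = 0.302). When 1 library at a time was left out, Cth was called in all 12 fits, with differences of -0.67 to -0.54, and Cdo1 in 6 of 12, with differences of -0.66 to -0.49. The Cdo1 call was lost without young NACET replicate 3 (-0.49, edgeR adjusted p = 0.0508) or 4 (-0.51, 0.0654) and without old NACET replicate 1 (-0.57, 0.0596), 2 (-0.52, 0.0703), 4 (-0.61, 0.0505) or 5 (-0.58, 0.0578).

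**Figure D4:**
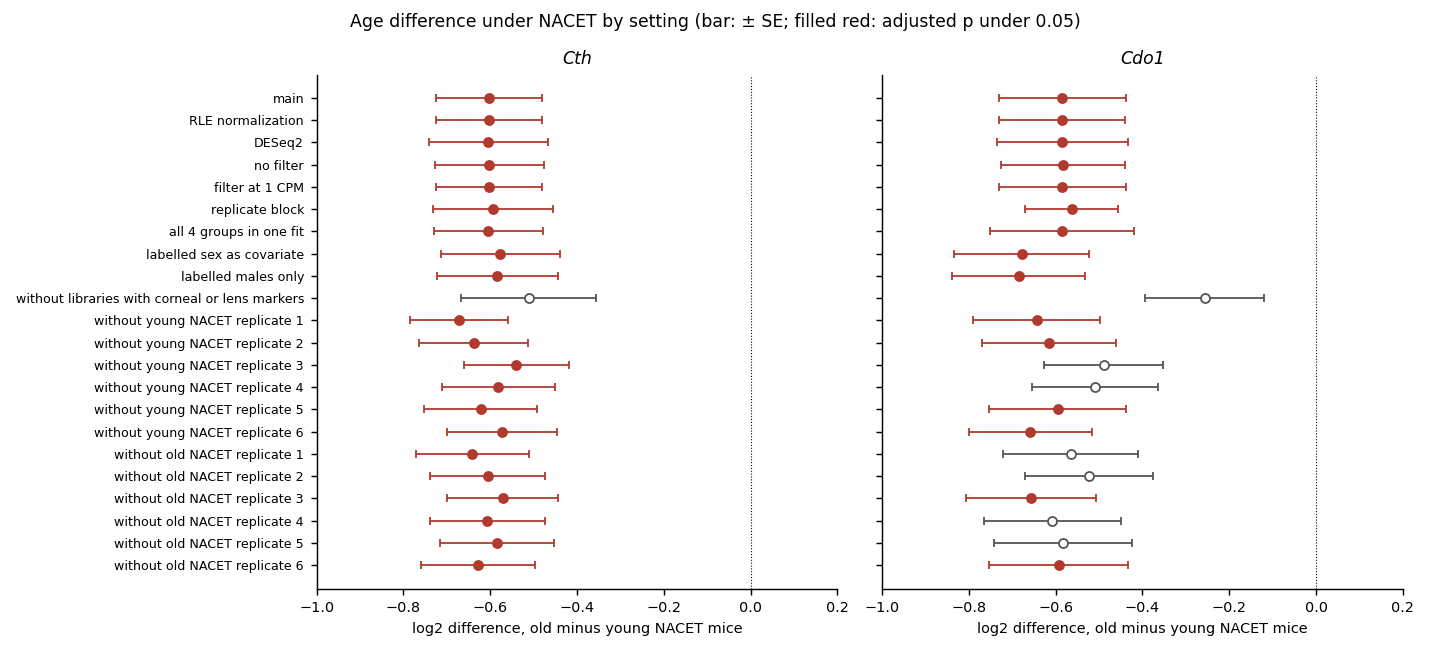
Log2 difference of Cth and Cdo1 between old and young NACET mice (horizontal axis, bars ± SE) for each setting of the fit (vertical axis), filled where the adjusted p was under 0.05. Cth keeps near -0.60 and loses its call once, without the libraries with corneal or lens markers, whereas Cdo1 moves to -0.26 there and loses its call in 7 of 21 alternatives.

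The other genes with an unadjusted p under 0.05 in these mice were Slc7a11, Gss and Gclm, all higher in the old. Slc7a11 differed by 0.41 (SE 0.15, edgeR adjusted p = 0.136), Gss by 0.33 (SE 0.12, edgeR adjusted p = 0.137) and Gclm by 0.18 (SE 0.08, edgeR adjusted p = 0.195). For each of the 3, all 6 old mice lay above the median of the young. Without old NACET replicate 1 Gss differed by 0.17 (SE 0.06) and Gclm by 0.10 (SE 0.06). Without all 4 carry-over libraries Slc7a11 differed by 0.59 (SE 0.19, edgeR adjusted p = 0.0892), Gss by 0.26 (SE 0.07, edgeR adjusted p = 0.0526) and Gclm by 0.18 (SE 0.07, edgeR adjusted p = 0.168). Cbs (0.17), Mpst (0.08), Gclc (0.06), Csad (0.03) and Slc1a1 (-0.08) had edgeR adjusted p-values of 0.405 or more. The share of all genes with an unadjusted p under 0.05 was 21.1%.

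Whether NACET acted differently in old and young mice was asked with the interaction of NACET and age over all 20 libraries. No gene of all 16993 was called by edgeR (0%), the smallest adjusted p being 0.0678, whereas 1052 had an unadjusted p under 0.05 and DESeq2 called 86, none of them among the 10. Cdo1 had the largest interaction of the 10, -0.77 on the log2 scale (SE 0.26, edgeR unadjusted p = 0.00766, adjusted p = 0.496), with its NACET difference 0.38 in young and -0.39 in old mice. Without the 5 carry-over libraries it was -0.14 (SE 0.18, edgeR adjusted p = 1). The Slc7a11 interaction of 0.59 (SE 0.35, edgeR adjusted p = 0.874) became 0.05 (SE 0.25) without young control replicate 4. Slc1a1 came next to Cdo1 relative to its error, at -0.19 (SE 0.09, edgeR adjusted p = 0.817). The interactions of Gclc (0.07, 95% interval -0.06 to 0.19), Gclm (-0.01, -0.24 to 0.21), Gss (0.14, -0.23 to 0.51), Cth (-0.08, -0.49 to 0.33), Cbs (0.16, -0.27 to 0.60), Csad (-0.01, -0.19 to 0.18) and Mpst (-0.10, -0.45 to 0.26) included 0.

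**Figure D5:**
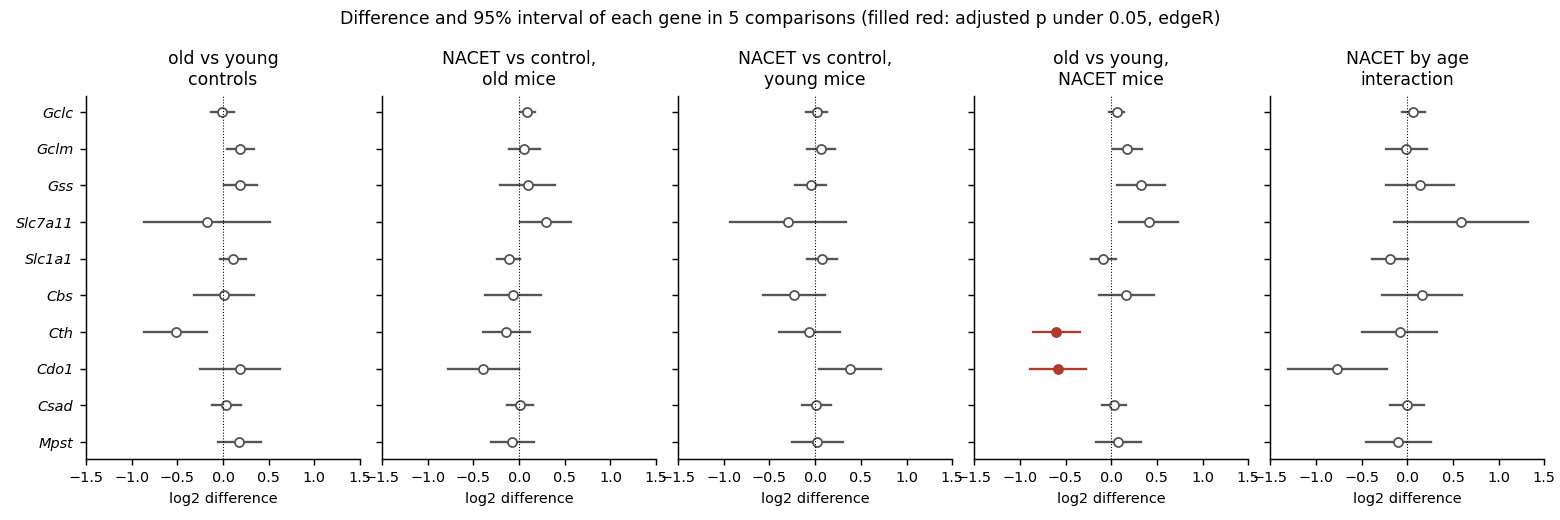
Log2 difference of each gene (vertical axis) with its 95% interval in the 5 comparisons (panels), filled where the edgeR adjusted p was under 0.05. The 2 filled points are Cth and Cdo1 in old against young NACET mice, while the synthesis genes Gclc, Gclm and Gss lie within 0.33 of 0 throughout.

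Over the 10 genes the median log2 difference was 0.07 for age in controls, -0.03 for NACET in old mice, 0.01 for NACET in young mice, 0.07 for age in NACET mice and -0.01 for the interaction. Over all genes tested the same medians lay between -0.01 and 0.01. Comparisons that use the same groups share those libraries, and their values are given side by side without a test of likeness.

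Among 58 further genes of the surrounding pathways, 47 to 49 were tested per comparison, and calls occurred solely between old and young mice under NACET. There 3 of 47 were called by edgeR (6.38%, against 4.88% of all genes). Sqrdl, the mitochondrial enzyme that oxidizes sulfide, rose by 1.03 on the log2 scale (edgeR adjusted p = 0.00262), from 0.793 ± 0.153 to 1.68 ± 0.321 CPM (SD, n = 6 each). Shmt2, which makes glycine from serine in mitochondria, fell by 0.40 (edgeR adjusted p = 0.000104), from 38.4 ± 3.21 to 30.1 ± 1.54 CPM (SD, n = 6 each). Cndp2, a dipeptidase that splits cysteinylglycine, fell by 0.19 (edgeR adjusted p = 0.0381), from 53.9 ± 4.19 to 49.0 ± 2.54 CPM (SD, n = 6 each). Between old and young controls Sqrdl differed by 0.21, Shmt2 by -0.43 and Cndp2 by -0.07 (edgeR adjusted p = 0.722, 0.0505 and 0.587). Sqrdl was at 1.23 ± 0.411 CPM (SD, n = 4) in young controls, and young NACET mice differed from these by -0.64 (SE 0.24). Its age difference under NACET thus rests in part on low values, under 1 CPM on average, in young NACET mice.

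Without the carry-over libraries Sqrdl (1.07, edgeR adjusted p = 0.0287) and Shmt2 (-0.36, edgeR adjusted p = 0.00558) were still called and Cndp2 (-0.19, edgeR adjusted p = 0.0939) was not. With each library left out in turn, Sqrdl and Shmt2 were called in all 12 fits and Cndp2 in 4, losing its call without young NACET replicate 1, 2, 3 or 4 or old NACET replicate 1, 2, 3 or 5, with differences of -0.22 to -0.17.

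By list, these were 1 of 9 genes of cysteine oxidation and sulfide handling, 1 of 6 of glutamate and glycine supply and 1 of 8 of glutathione breakdown. None was called among the 8 tested genes of the methionine cycle, the 11 of transport, the 4 regulators (Nfe2l2, Keap1, Bach1 and Atf4) or the 1 gene tested for removal of ester and acetyl groups. In the other 4 comparisons edgeR called 0 of these genes, with 8 under an unadjusted p of 0.05 for age in controls, 8 for NACET in old mice, 1 for NACET in young mice and 4 for the interaction.

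Within the pathway, the highest Pearson's r of log2 CPM over the 20 libraries was 0.822, between Gclm and Gss (Spearman's rho 0.635), and it was 0.684 without old NACET replicate 1, where both genes were highest. The highest rho was 0.71, between Gclm and Slc7a11 (r 0.560). Gclc and Gclm had an r of 0.725 and a rho of 0.680. Cth had the lowest r with Csad (r -0.449, rho -0.426) and the lowest rho with Gclm (r -0.429, rho -0.465). These values include differences between the 4 groups. With each value centered on the mean of its group, r for Cth was -0.196 with Csad and 0.258 with Gclm. Centered in this way, r was 0.737 for Gclm and Gss, 0.489 for Gclm and Slc7a11 and 0.605 for Gclc and Gclm. Gclc and Gclm ran against the summed rod markers, with r of -0.883 and -0.862 and rho of -0.847 and -0.774. Most of the other genes went the same way, with r of -0.740 for Gss, -0.558 for Csad, -0.546 for Slc7a11, -0.504 for Cbs, -0.480 for Slc1a1 and -0.321 for Mpst. Cth (0.490) and Cdo1 (0.175) went the other way. Rod markers were 74500 to 89800 summed CPM in young control, 71400 to 88200 in young NACET, 65200 to 78900 in old control and 58500 to 70200 CPM in old NACET mice, and their part in the Gclc and Gclm differences was not tested. Both quantities of each pair are scaled to the same total count, of which rods take several percent, and neither uses TMM factors. The highest rod sum, 89800 CPM in a young control, came with a TMM factor of 0.942 and 47.9 CPM of Gclc. That of young NACET mice, 88200 CPM, came with a factor of 0.934 and 48.0 CPM. These were the lowest factors and Gclc levels of the series. The r of all genes with rods was not computed, so r cannot be called particular to these genes. For Muller glia markers r was 0.646 for Gclc and 0.609 for Gclm (0.449 and 0.315 without the 2 farthest libraries).

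Among all genes, those whose log2 CPM was most like that of the 4 most variable genes were, for Slc7a11, Il33 (r 0.909, rho 0.815) and Gldc (r 0.888, rho 0.812). For Cdo1 they were St14 (r 0.923, rho 0.770) and Aim1l (r 0.910, rho 0.761). For Gss they were Slc7a2 (r 0.926, rho 0.815) and Pacsin3 (r 0.924, rho 0.782). For Cth they were Dnaic2 (r 0.864, rho 0.818) and Rspo2 (r 0.833, rho 0.785). All were measured over the same 20 libraries. Without the 2 libraries farthest from the median, r was 0.900 for Il33, 0.901 for St14, 0.804 for Slc7a2 and 0.848 for Dnaic2.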

How the data were processed

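PolyA RNA of 20 mouse retinas was measured by sequencing, and the labels of the samples gave the groups. The authors deposited unnormalized read counts for each gene. They had, per the labels and the study's methods, aligned single-end TruSeq reads to mm9 (TopHat2 2.1.0) and counted exon reads with HTSeq-count 0.11.2, without regard to strand; the annotation is not given in the sources used here. Of these counts 0.000942% to 0.00218% lay in 1 row that names no gene and were left out.

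CPM are counts per 1e+06 gene counts. Each pair of groups was fitted on its own, and the interaction on all 20 libraries, with edgeR 4.0.16 in R 4.3.3: TMM, the default expression filter, the two-sided quasi-likelihood test and Benjamini-Hochberg adjustment over all genes tested, with calls at an adjusted p under 0.05. The fits were tested on simulated data. Intervals are 95%. The p-values weigh each difference against the spread between libraries of a group, 1 per mouse. That spread takes in age cohort, labelled sex and carry-over where these vary within a group. Positions and exon lengths came from GENCODE for mm9, matched by gene name; the length used is the union of all exons. The alternatives were DESeq2 1.42.0, RLE normalization, other filters, each library left out, replicate number as a block, sex, age cohort and a joint fit. Leaving out carry-over libraries (corneal markers over 50 or lens markers over 100 CPM) or libraries with Xist over 1 CPM was chosen after seeing the data. The 10 genes, the 58 pathway genes and the marker lists were chosen with earlier results of these data known. All 10 genes are named in every comparison, pathway genes where called, and like genes by the highest r for the 4 genes of widest range.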

Additional observations from a re-analysis of the deposited data

Results flagged for a closer look

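Of 40 sets of CPM values, 1 per gene and group, 3 had a library far from the rest of its group by Dixon's test, which marks about 1 in 20 groups by chance. In old NACET replicate 1, Gclm was 44.85 CPM, while the other 5 old NACET mice were at 31.8 to 36.5 CPM. In the same library Gss was 65.22 CPM, while the others were at 32.9 to 40.8 CPM; its lens markers summed to 2390 CPM, with the next highest library of the series at 3.16. In old control replicate 2, Cdo1 was 12.03 CPM, while the other 3 old controls were at 6.31 to 6.62 CPM; its corneal markers summed to 388 CPM and its blood markers to 91.4 CPM, the highest of the 20 libraries in each list. The part of these tissues in the 3 values was not tested.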

How the results depend on the processing

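The number of the 10 genes called was 0 under all 18 alternatives for age in controls, all 20 for NACET in old mice, all 21 for NACET in young mice and all 29 for the interaction. For age under NACET it was 2, became 0 without the libraries with corneal or lens markers, and ranged from 1 to 2 when each library was left out; in the 8 remaining alternatives it was 2. Over the same alternatives the count over all genes went from 69 to 710 (main 234), 0 to 373 (90), 0 to 8 (0), 0 to 86 (0) and 422 to 1325 (795) in the order controls, old, young, interaction and age under NACET. Slc7a11 with NACET in young mice reversed from -0.30 to 0.15 in mice labelled male, and ranged from -0.50 to 0.24 when each library was left out. Young control replicate 4, at 14.5 CPM, is labelled female and so is not in the fit of males. Without that library alone, females kept, the difference was 0.24. A part of sex was not tested. Of 50 differences of the 10 genes, 20 changed sign in at least 1 alternative, 19 of them within 1 SE of 0. Replicate numbers did not pair the samples: same-numbered samples had deviations correlated at -0.159 to 0.123. With replicate number as a block, 0, 0, 0, 0 and 2 genes were called in the same order, and 163, 17, 6, 0 and 422 of all genes. CPM scaled by TMM factors moved no group mean by more than 1 SD. A shift within 1 SD can still change small differences and the order of single libraries. Gclc means were 51.4 CPM in young and 52.9 CPM in old controls, yet its log2 difference in the test, which uses TMM, was -0.01. Levels, overlaps and correlations in the text are from unscaled CPM. Counting error was largest for Cbs, read 45 to 96 times per library.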
